A study of Mus musculus with 16 samples.

Results

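Loss of Nova1 and Nova2 was compared between brain and spinal cord by the difference of the knockout effects: the change in double knockout (dKO) spinal cord minus the change in dKO brain, called the interaction here. RNA was hybridised to Affymetrix mouse exon arrays, which carry probe sets along the exons of each gene. All 16 arrays of the series entered the comparison, in 4 groups of 4: wild type (WT) brain, Nova1/2 dKO brain, WT spinal cord and Nova1/2 dKO spinal cord. The tissues were whole brain and spinal cord of CD1 mice, an outbred stock, at E18.5, late in gestation. The controls carried no Nova deletion according to the labels. The labels give 1 array to each biological replicate, but they do not say which exons the alleles remove. A negative interaction means that the dKO-minus-WT difference was lower in spinal cord than in brain.

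Nova1 and Nova2 are RNA-binding proteins of neurons that bind YCAY clusters in pre-mRNA and control whether nearby exons are included. Binding in or just before an exon tends to favour skipping, and binding in the intron after it tends to favour inclusion. Their known targets are rich in genes of the synapse, the cytoskeleton and cell adhesion. Nova1 was first described mainly in hindbrain and ventral spinal cord, and Nova2 mainly in neocortex. Mice lacking both are paralysed and die around birth. An effect of Nova loss can therefore be read both in gene levels and in single exons, and in regions with different Nova dosage.

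Values are log2(intensity + 16), so that a difference of 1 is close to a doubling for bright genes and understates the fold of dim ones. Gene levels are medians over the probe sets of a gene. The exon index is the log2 value of a probe set less its gene's level, both read on 1 array, so it shows a change relative to the rest of the gene. The floor was 6.73, the median over all probe sets. Tests were limma's moderated tests over all 16 arrays with Benjamini-Hochberg adjustment at 0.05, and a feature that passed is called. Each group has 4 arrays, and their number limits the precision.

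The arrays of each tissue matched their labels for the defining markers, with limits. Hox genes of the trunk separated the tissues: Hoxc8 was between 10.52 and 10.88 on all 8 cord arrays and between 5.12 and 6.69 on all 8 brain arrays. The cortical gene Tbr1 was between 9.87 and 10.20 on 6 brain arrays, but it was 6.08 on WT brain 3 and 8.04 on dKO brain 3, while the cord arrays lay between 6.29 and 6.73. The mean level of 20 telencephalon genes was 7.92 on WT brain 3 and 8.62 on dKO brain 3 and between 9.28 and 9.48 on the other 6 brain arrays. The mean level of 28 skeletal muscle genes was 9.47 and 8.77 on WT cord 1 and 4 and 8.94 and 8.51 on dKO cord 2 and 4, against 7.36 to 7.58 on the other 4 cord arrays. By Xist and Y-linked probe sets, 2 embryos of each WT group, none of dKO brain and 1 of dKO cord were male. Results are therefore also given without the brain arrays numbered 3 and without the cord arrays rich in muscle genes. These are bulk tissues, so fewer cells of a type and less RNA per cell cannot be told apart.

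The targeted genes were read first. Nova1 was 10.25, 9.996, 10.72 and 10.13 on the WT brain arrays and 11.94, 11.66, 11.52 and 11.65 on the WT cord arrays, and so higher in WT cord than in WT brain on every array. It was 4.64, 5.51, 5.29 and 5.51 in dKO brain and 6.38, 6.28, 6.54 and 6.33 in dKO cord, below the floor on all 8 dKO arrays. The fall was 5.03 on the log2 scale in brain (adjusted p = 2.44e-13) and fell by 5.31 in cord (adjusted p = 8.94e-14). The interaction was -0.27 (95% interval -0.78 to 0.23, adjusted p = 0.83). Because both dKO groups were below the floor, these differences are not measures of how much of either transcript remained. Nova2 was 8.67, 8.45, 8.75 and 8.79 in WT brain against 8.03, 7.85, 7.77 and 8.0 in dKO brain. In cord it was 8.63, 8.23, 8.61 and 8.39 in WT against 7.39, 7.17, 7.41 and 7.31 in dKO. The genotypes did not overlap in either tissue. Nova2 fell by 0.75 in brain and by 1.14 in cord, and the interaction was -0.39 (95% interval -0.72 to -0.07, adjusted p = 0.516), which did not pass.

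No gene passed the interaction test. Of 14570 genes, 0 were called by limma (0% of those tested), and the smallest adjusted p was 0.0509. At an unadjusted p under 0.05 there were 1166 genes (8%), of which 913 (6.27%) were lower and 253 (1.74%) higher in cord than in brain. The number of calls moved with the processing: it was 0 in 14 of 34 alternative analyses and reached 41 with array weights (34 lower, 7 higher) and 34 with quantile normalization over all arrays (32 lower, 2 higher). In brain, WT and dKO arrays of the same number deviated together, and with that number as a block in brain 9 genes were called, all lower in cord. Without 1 array, 14 genes were called when WT brain 3 was left out and 18 when WT cord 4 was, 4 without dKO cord 1, 1 without WT brain 2 or WT cord 2, and 0 without any of the other 11. Without the brain arrays numbered 3 there were 10 calls, without the muscle-rich cord arrays 1, and without both sets 1. With sex as a term there were 0. Over all alternatives 64 genes were called at least once, 55 lower and 9 higher in cord.

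What 4 arrays a group could resolve can be read from the intervals. The median standard error of a gene's interaction was 0.169, against 0.12 for the change within 1 tissue, and the median 95% interval reached 0.354 to each side. For 49.7% of the genes the whole interval lay within 0.5 of 0, and for 97.2% within 1. For most genes the interval thus left no room for a tissue difference over 1 on the log2 scale, while a difference smaller than 0.354 cannot be told from 0 in a typical gene. A gene without a call is not shown to respond alike in both tissues. The estimated interaction was beyond 1 in 21 genes.

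Within each tissue the 2 effects differed in how many genes passed. In brain 39 genes were called (0.268%), 28 lower (0.192%) and 11 higher (0.0755%). In cord 820 were called (5.63%), 663 lower (4.55%) and 157 higher (1.08%). The brain and cord comparisons share no arrays. Of these genes 33 were called in both, 84.6% of the brain calls and 4.02% of the cord calls, and none with opposite signs. All 39 genes called in brain had the same sign in cord, as did 699 of the 820 genes called in cord (85.2%) in brain. The median size of the change of the cord-called genes was 0.50 in cord and 0.15 in brain. For the 39 brain-called genes it was 0.76 in brain and 0.75 in cord. Genes chosen by a call in 1 tissue tend to have larger estimates there, so these medians do not compare the tissues. Over all genes, the changes in the 2 tissues had a Pearson correlation of 0.42 and a Spearman correlation of 0.30, across genes that share arrays and are not independent. The brain count ran from 28 to 143 over the alternatives. The cord count rested on single arrays: it was 425 without dKO cord 2 or 3, 420 without dKO cord 4, 540 without WT cord 3 and 1231 without WT cord 4. Without the 4 muscle-rich cord arrays it was 100, of which 94% had the same sign in brain, and with quantile normalization over all arrays it was 1620. More genes called in one tissue is not a test that the tissues differ. Among the 100 genes with the smallest interaction p, 87 had a negative interaction. In 53 the sign of the difference was opposite between the tissues, in 46 it was the same with a larger size in cord, and in 1 the same with a larger size in brain. Of the 100, 83 were called in cord and 3 in brain, with a median size of change of 0.63 in cord and 0.17 in brain. A ranking by the interaction favours opposite signs, and the sign of a small difference is uncertain. The 53 are thus not shown to respond in opposite directions.

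**Figure D1:**
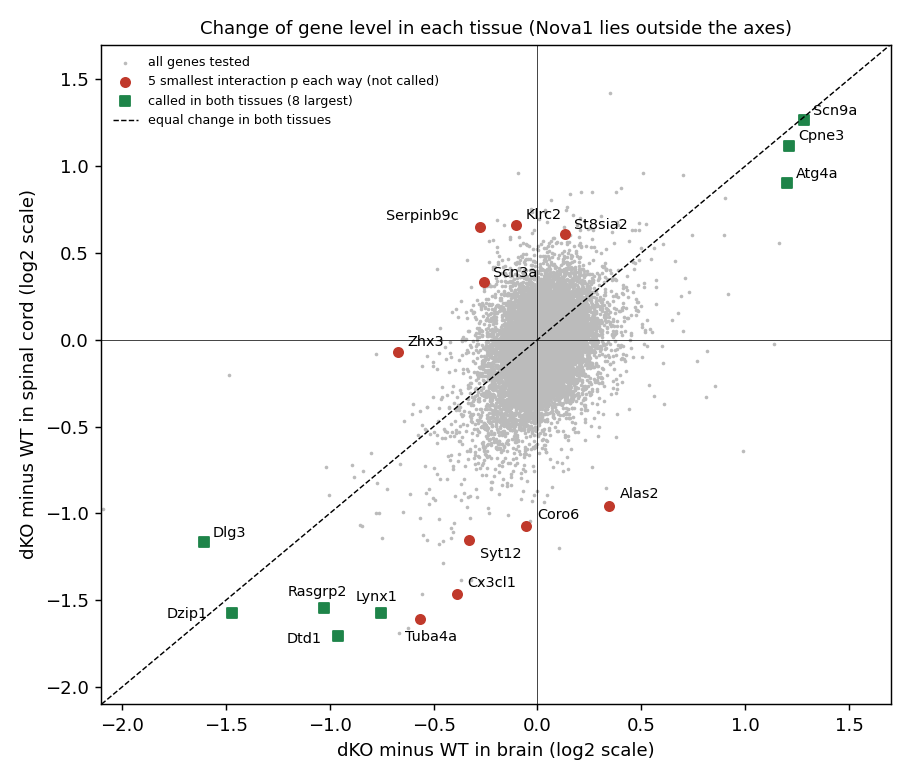
Change of gene level in dKO brain (horizontal axis) against dKO spinal cord (vertical axis), both as dKO minus WT on the log2 scale with 4 arrays a group. Grey points are the genes tested, red points the 5 genes in each direction with the smallest interaction p, and green squares the 8 largest changes called in both tissues; Cx3cl1 and Tuba4a lie well under the dashed line of equal change, while Scn9a and Dzip1 lie close to it.

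The genes closest to passing were lower in dKO cord. Cx3cl1 encodes fractalkine, a neuronal chemokine whose receptor is carried by microglia. Its level was 10.50, 10.17, 10.47 and 9.94 in WT cord and 9.01, 8.73, 8.76 and 8.73 in dKO cord. In brain it was 9.70, 9.67, 9.94 and 9.66 in WT and 9.23, 9.25, 9.59 and 9.34 in dKO. The genotypes did not overlap in either tissue, and the gap was wider in cord. Cx3cl1 fell by 1.46 in cord (adjusted p = 4.9e-07), the difference in brain was -0.39 (adjusted p = 0.458), and the interaction was -1.08 (95% interval -1.45 to -0.70, adjusted p = 0.0509). All 10 of its probe sets had a negative interaction, and it was called in 14 of the 34 alternatives.

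Syt12, a synaptotagmin of synaptic vesicles, was 8.73, 8.59, 8.51 and 8.65 in WT cord and 7.44, 7.53, 7.49 and 7.40 in dKO cord. It was 7.73, 7.43, 7.77 and 7.43 in WT brain and 7.17, 7.18, 7.38 and 7.33 in dKO brain. WT cord stood above all other groups, and dKO cord overlapped WT brain. Syt12 fell by 1.16 in cord, the brain difference was -0.33, and the interaction was -0.83 (95% interval -1.12 to -0.53, adjusted p = 0.0509). Coro6, of the coronin family of actin-binding proteins, was 8.77, 8.33, 8.54 and 8.28 in WT cord and 7.66, 7.18, 7.36 and 7.42 in dKO cord. On the 8 brain arrays it was between 6.75 and 7.12, close to the floor, and the genotypes overlapped there. Its interaction was -1.02 (95% interval -1.38 to -0.66, adjusted p = 0.0509), and a brain difference of a gene this dim can be understated. Syt12 was called in 11 alternatives and Coro6 in 12.

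Tuba4a, an alpha-tubulin isotype, was 9.91, 9.95, 9.97 and 9.81 in WT cord and 8.73, 8.13, 8.15 and 8.19 in dKO cord. It was 9.22, 8.79, 9.18 and 8.92 in WT brain and 8.38, 8.25, 8.51 and 8.69 in dKO brain. The dKO groups of both tissues came to a similar range, from WT levels that differed. Tuba4a fell by 1.61 in cord (adjusted p = 4.9e-07), the brain difference was -0.57 (adjusted p = 0.105), and the interaction was -1.04 (95% interval -1.44 to -0.65, adjusted p = 0.0736). Alas2, the erythroid enzyme that starts haem synthesis, was 9.16, 9.37, 9.26 and 9.09 in WT cord and 8.35, 8.24, 8.09 and 8.37 in dKO cord. In brain it was 9.29, 9.20, 9.21 and 8.61 in WT and 9.36, 9.97, 9.11 and 9.24 in dKO, with the genotypes overlapping. Its interaction was -1.30 (95% interval -1.78 to -0.81, adjusted p = 0.0709), from a fall of 0.96 in cord and a difference of 0.34 in brain. Tuba4a was called in 10 alternatives and Alas2 in 9.

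Other genes at an adjusted p under 0.10 are named after their values were seen. Htra1, a secreted serine protease, had an interaction of -1.30 (adjusted p = 0.0737) and Morn2 one of -1.63 (adjusted p = 0.0763). Rwdd2a (-1.04), the potassium channel-interacting protein gene Kcnip3 (-0.81) and the diacylglycerol kinase gene Dgkg (-0.83) followed with adjusted p from 0.0737 to 0.0965. With Klrc2 these made 11 genes.

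Genes with a positive interaction were fewer and further from the threshold. Klrc2, a lectin-like receptor known from natural killer cells, was 8.24, 7.99, 8.13 and 8.09 in WT cord and 8.84, 8.59, 8.99 and 8.69 in dKO cord. It was between 7.12 and 7.55 on the brain arrays. The cord groups did not overlap, and the brain groups did. Klrc2 rose by 0.66 in cord (adjusted p = 0.001), the brain difference was -0.10, and the interaction was 0.77 (95% interval 0.45 to 1.08, adjusted p = 0.0965). St8sia2, which adds polysialic acid to the adhesion molecule NCAM in developing neurons, was 9.17, 9.12, 9.09 and 9.07 in WT cord and 9.83, 9.60, 9.81 and 9.64 in dKO cord. It was between 10.10 and 10.42 on the brain arrays, above every cord array. St8sia2 rose by 0.61 in cord (adjusted p = 0.000289), the brain difference was 0.13, and the interaction was 0.47 (95% interval 0.21 to 0.73, adjusted p = 0.28).

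Scn3a, a sodium channel prominent in embryonic neurons, and Zhx3, a homeobox repressor, had positive interactions of another kind. Scn3a was 9.66, 9.72, 9.89 and 9.74 in WT brain and 9.44, 9.52, 9.51 and 9.51 in dKO brain, without overlap, but 9.45, 9.17, 9.21 and 9.67 in WT cord and 9.71, 9.58, 9.77 and 9.76 in dKO cord. Its differences were -0.26 in brain and 0.33 in cord, neither called, and the interaction was 0.59 (95% interval 0.28 to 0.90, adjusted p = 0.238). Zhx3 was 8.23, 8.19, 8.21 and 8.33 in WT brain and 7.32, 7.61, 7.54 and 7.80 in dKO brain, and between 8.03 and 8.46 on the cord arrays. Zhx3 fell by 0.67 in brain (adjusted p = 0.00449), the cord difference was -0.07, and the interaction was 0.60 (95% interval 0.28 to 0.93, adjusted p = 0.271). Its sign depended on which probe sets were read: with the floor at the 75th percentile the interaction was -0.15. Serpinb9c, a serine protease inhibitor gene from a family of closely related copies, had an interaction of 0.93 (95% interval 0.44 to 1.42, adjusted p = 0.238) and is uncertain for that reason.

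**Figure D2:**
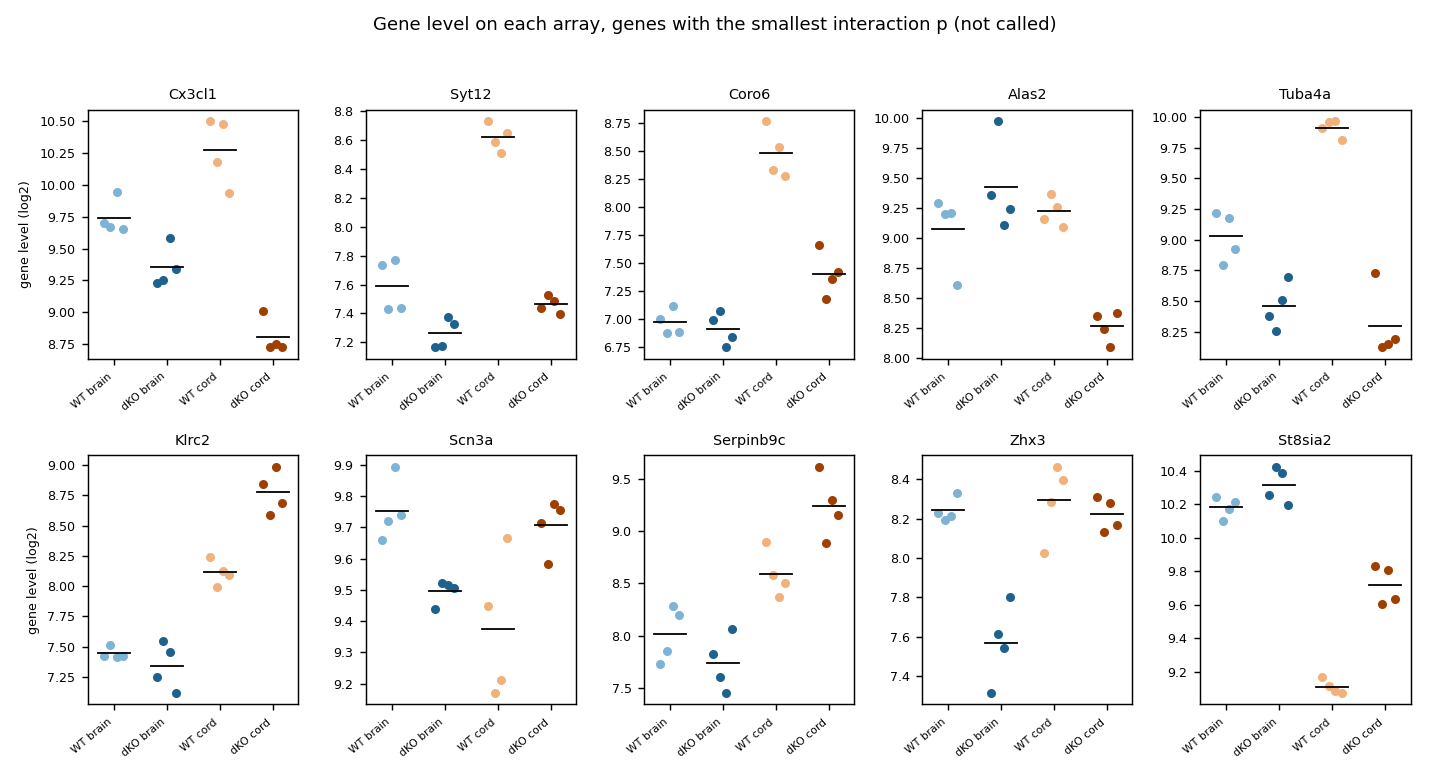
Gene level (log2 of intensity + 16, vertical axes) on each of the 16 arrays for the 5 genes with the smallest interaction p in each direction, none of them called. Points are arrays in the order of their numbers and black lines group means; Cx3cl1, Syt12, Coro6 and Tuba4a are highest in WT cord, and Zhx3 is low in dKO brain alone.

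Genes called in both tissues show what the 2 effects share. Dzip1, needed to build primary cilia, was between 9.99 and 10.68 in WT brain and 8.62 and 8.91 in dKO brain, and between 10.60 and 10.99 in WT cord and 9.11 and 9.32 in dKO cord. It fell by 1.47 in brain and fell by 1.57 in cord, with an interaction of -0.10 (95% interval -0.48 to 0.28). The sodium channel gene Scn9a rose by 1.28 in brain and 1.26 in cord, with an interaction of -0.02 (95% interval -0.60 to 0.55), whose sign is not set: it was positive in 13 alternatives. Cpne3, of the copine family of calcium-dependent membrane-binding proteins, rose by 1.21 and 1.12 (interaction -0.10, 95% interval -0.39 to 0.20), although with quantile normalization over all arrays the interaction was 0.20. The autophagy protease gene Atg4a rose by 1.20 and 0.90 (interaction -0.30, 95% interval -0.67 to 0.07). For Dzip1 and Cpne3 the interval leaves no room for a difference as large as 0.5.

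For 4 others the intervals did not include 0, although none passed the adjusted test. Dlg3, the synaptic scaffold SAP102 and a known Nova target, was 9.51, 9.50, 9.27 and 9.55 in WT brain and 7.90, 7.84, 7.79 and 7.87 in dKO brain. In cord it was 9.20, 8.93, 9.08 and 9.10 in WT and 7.79, 7.93, 7.90 and 8.04 in dKO. Dlg3 fell by 1.61 in brain and 1.17 in cord, and the interaction was 0.44 (95% interval 0.17 to 0.71, adjusted p = 0.33). Lynx1, a modulator of nicotinic receptors, was 8.06, 8.02, 8.50 and 7.91 in WT brain, 7.28, 7.16, 7.75 and 7.28 in dKO brain, 9.62, 9.34, 9.46 and 9.34 in WT cord and 7.97, 7.80, 7.74 and 7.94 in dKO cord. It fell by 0.76 in brain and fell by 1.58 in cord, with an interaction of -0.82 (95% interval -1.22 to -0.43, adjusted p = 0.178), and it was called in 5 alternatives. Dtd1, a D-aminoacyl-tRNA deacylase, fell by 0.96 in brain and 1.71 in cord (interaction -0.74, 95% interval -1.09 to -0.39, adjusted p = 0.178). Rasgrp2, an activator of the small G protein Rap, fell by 1.03 and 1.55 (interaction -0.52, 95% interval -0.91 to -0.13, adjusted p = 0.473). Of the 33 genes called in both tissues, 25 fell and 8 rose in both, 17 had the larger change in brain and 16 in cord, and the intervals of 7 excluded 0.

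In the analysis reported, 6 genes were called in brain and not in cord, but with array weights 143 were called in brain and 81 of these in cord. The 6 were C1qtnf2, Epcam, Gipr, Mest, Zhx3 and Zim3. Mest, an imprinted gene, rose by 0.67 in brain (11.10 to 11.56 in WT and 11.95 to 12.03 in dKO) and differed by 0.15 in cord, where the arrays of both genotypes lay between 11.28 and 11.71. Its interaction was -0.52 (95% interval -0.83 to -0.21, adjusted p = 0.315). The intervals of Epcam (-0.91 to -0.15), C1qtnf2 (0.03 to 0.61) and Zim3 (0.23 to 1.16) excluded 0, and that of Gipr (-1.29 to 0.08) did not. The interaction test passed for none of these 6.

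Gene families were read by their counts and medians beside all genes tested. The lists held 800 tested genes in 42 lists, and no member was called. The reference for the counts below is the 6.27% of all genes that were lower, and the 1.74% that were higher, at an unadjusted p under 0.05. The reference for the medians is the median interaction of all genes, -0.05.

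Glial lists had the lowest medians. Of 20 astrocyte genes 12 were lower at an unadjusted p under 0.05 and 0 higher, and the median interaction was -0.41, from a median of -0.01 in brain and -0.51 in cord. Within cord 12 of the 20 fell by the adjusted test, as 4.55% of all genes did, and in brain none was called. S100b, a calcium-binding protein of astrocytes, was 8.10, 7.96, 8.07 and 7.88 in WT cord and 7.48, 7.32, 7.20 and 7.19 in dKO cord, while both brain groups lay between 6.77 and 7.44. Its interaction was -0.82 (95% interval -1.20 to -0.45, adjusted p = 0.151). Gfap, the astrocyte intermediate filament, was 9.96, 9.37, 9.70 and 8.92 in WT cord and 9.01, 8.49, 8.40 and 8.63 in dKO cord, with 1 WT array, number 4, below the highest dKO array. In brain it was 8.48, 7.67, 7.95 and 7.91 in WT and 8.26, 8.23, 8.69 and 8.14 in dKO. Its interaction was -1.18 (95% interval -1.78 to -0.59, adjusted p = 0.205). The neurotensin receptor gene Ntsr2 (-0.80) and clusterin, Clu (-0.73), also had intervals below 0, and both fell in cord. The mean level of the astrocyte list was between 9.47 and 9.84 in WT cord and 9.17 and 9.42 in dKO cord, and between 9.43 and 9.69 on the brain arrays.

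The oligodendrocyte precursor and myelin list followed, with 7 of 15 lower, 0 higher and a median of -0.29. Olig1, a transcription factor of the oligodendrocyte lineage, was 9.85, 9.79, 10.02 and 9.54 in WT cord and 9.07, 9.02, 8.88 and 8.92 in dKO cord. On the brain arrays it was between 9.75 and 10.12 with the genotypes overlapping. It fell by 0.83 in cord, the brain difference was -0.15, and the interaction was -0.68 (95% interval -0.98 to -0.38, adjusted p = 0.146). Cspg4 (NG2, a marker of the precursors) had an interaction of -0.45 and Cnp, an enzyme of myelin, one of -0.60. In the microglia and macrophage list 11 of 20 were lower, 1 higher and the median was -0.45, the lowest of the 42. That list counts Cx3cl1, which is made by neurons. Its microglial members were dim: Csf1r, the receptor that microglia need, was 8.54, 8.14, 7.92 and 8.17 in WT cord and 7.58, 7.73, 7.49 and 7.87 in dKO cord, and between 7.99 and 8.44 in brain (interaction -0.65, 95% interval -1.02 to -0.28). Tyrobp had an interaction of -0.98 from differences of 0.61 in brain and -0.37 in cord, neither called, and the complement gene C1qa one of -0.80. These 3 lists kept a negative median in every alternative, with astrocyte between -0.50 and -0.29, oligodendrocyte between -0.40 and -0.21 and microglia between -0.58 and -0.36. Their counts of lower members ran from 9 to 13, from 3 to 8 and from 5 to 13, the lowest oligodendrocyte and microglia counts with the floor at the 75th percentile, which leaves 9 and 8 members tested.

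Mature neuronal genes were lower as well, with 7 of 17 lower, 0 higher and a median of -0.28. Their median was -0.13 in brain and -0.50 in cord, where 9 fell. Thy1, a surface protein of mature neurons, was 10.42, 10.16, 10.47 and 10.03 in WT cord and 9.33, 8.86, 8.49 and 8.86 in dKO cord. It was 9.45, 9.49, 9.54 and 9.84 in WT brain and 9.05, 9.16, 9.65 and 8.98 in dKO brain, where only dKO array 3 overlapped the WT arrays. Thy1 fell by 1.39 in cord, the brain difference was -0.37, and the interaction was -1.02 (95% interval -1.51 to -0.53, adjusted p = 0.178). Sncb, beta-synuclein, fell by 1.16 in cord, differed by -0.45 in brain, and had an interaction of -0.71. The mean level of this list was between 10.73 and 11.02 in WT cord, 10.24 and 10.56 in dKO cord, 10.25 and 10.63 in WT brain and 10.18 and 10.36 in dKO brain. The WT cord arrays were thus above all others, and the dKO cord arrays overlapped the brain arrays.

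The lists of synaptic and excitability genes had medians between -0.25 and 0.05, and the lists were not tested against each other. Of 16 synaptotagmins, the calcium sensors of vesicle release and their relatives, 5 were lower and 0 higher, with a median of -0.25. Syt2, the fast calcium sensor of hindbrain and cord synapses, was 9.89, 9.74, 9.74 and 9.66 in WT cord and 8.67, 8.30, 8.02 and 8.18 in dKO cord. In brain it was 8.08, 7.80, 8.51 and 7.38 in WT and 7.43, 7.56, 7.36 and 7.20 in dKO, with overlap. Its interaction was -0.91 (95% interval -1.43 to -0.39). Of 24 synaptic vesicle and active zone genes 8 were lower and 1 higher (median -0.22), among them Sv2b (-0.47), Syn1 (-0.52) and Syp (-0.37). Over the alternatives the median of this list ran from -0.24 to -0.09 and its count of lower members from 3 to 10. The synaptotagmin median ran from -0.31 to -0.11. Of 19 SNARE proteins and complexins 2 were lower, led by the complexin gene Cplx1 (-0.56, a fall of 0.86 in cord beside -0.30 in brain). The median of that list was -0.16 and ran from -0.21 to -0.04 over the alternatives.

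Many inhibitory transmission genes fell in cord, but their median interaction was nearer to that of all genes. In that list 10 of 20 fell in cord, as 4.55% of all genes did, and none was called in brain. The median change was -0.41 in cord and -0.17 in brain, and the median interaction was -0.11 with 3 lower. That median interaction ran from -0.15 to -0.0065 over the alternatives. Glrb, the glycine receptor beta subunit that binds gephyrin, was 9.98, 10.11, 10.07 and 9.80 in WT cord and 9.42, 9.27, 8.82 and 9.09 in dKO cord, and between 9.50 and 9.77 in brain. Its interaction was -0.70 (95% interval -1.04 to -0.36, adjusted p = 0.185). Among 24 voltage-gated potassium channel genes 4 were lower and 1 higher (median -0.18), with Kcnab2 at -0.57, and among 19 calcium channel and pump genes 2 were lower, the plasma membrane calcium pumps Atp2b2 (-0.56) and Atp2b3 (-0.51). Over the alternatives the potassium channel median ran from -0.23 to -0.07. The calcium channel and pump median, -0.12, ran from -0.20 to 0.0052. Among 15 AMPA and NMDA receptor genes 3 were lower and 2 higher, and the median of -0.0046 changed sign in 11 of 34 alternatives. Of 10 sodium channel genes 1 was lower, Scn8a (-0.40), the channel of mature nodes of Ranvier, and 1 higher, Scn3a. Of 15 motor neuron and cholinergic genes 3 were lower, Calcb (-0.87), Ret (-0.58) and Ache (-0.56), and 1 higher, Uts2d (0.53).

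Genes of immature neurons did not follow. Their list had 0 lower and 2 higher of 20, with a median of 0.04. Dcx, a microtubule protein of migrating neurons, was 10.87, 10.54, 10.90 and 10.87 in WT cord and 11.28, 11.41, 11.32 and 11.45 in dKO cord, and between 11.70 and 11.96 in brain. Dcx rose by 0.57 in cord (adjusted p = 0.00129), the brain difference was 0.07, and the interaction was 0.51 (95% interval 0.22 to 0.79, adjusted p = 0.285). Sox11, a transcription factor of newborn neurons, was 9.24, 9.13, 9.13 and 9.31 in WT cord and 9.85, 10.12, 10.21 and 10.02 in dKO cord. In brain it was between 10.33 and 11.37, with both arrays numbered 3 lowest in their group. It rose by 0.85 in cord and had an interaction of 0.64 (95% interval 0.19 to 1.10, adjusted p = 0.427). Cell cycle genes had 0 lower and 0 higher of 26 (median 0.03), and neural progenitor genes 1 lower and 1 higher of 12 (median 0.02). Among 39 RNA-binding splicing regulators 2 were lower, Nova2 and Ptbp1 (-0.33), and 2 higher, Sfrs6 (0.50) and Tia1 (0.45), with a median of 0.07.

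**Figure D3:**
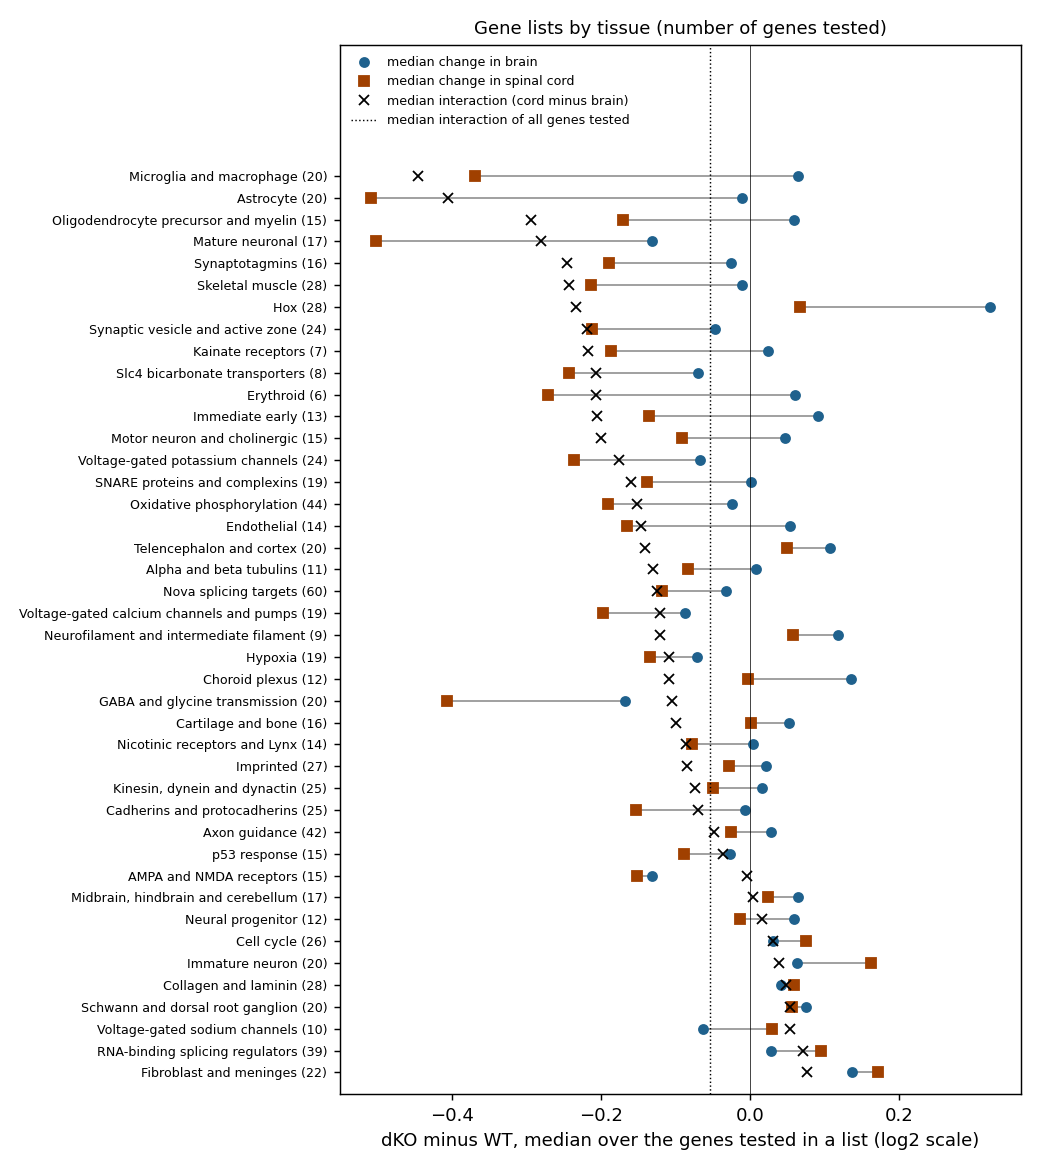
Median change (dKO minus WT, log2 scale, horizontal axis) of 42 gene lists in brain (blue circles) and spinal cord (brown squares), with the median interaction as a cross and the median over all genes tested as a dotted line at -0.05. Lists are sorted by the interaction; microglia, astrocyte, oligodendrocyte and mature neuronal genes are at the top with cord medians below brain, and splicing regulators and immature neuron genes are near the bottom.

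**Figure D4:**
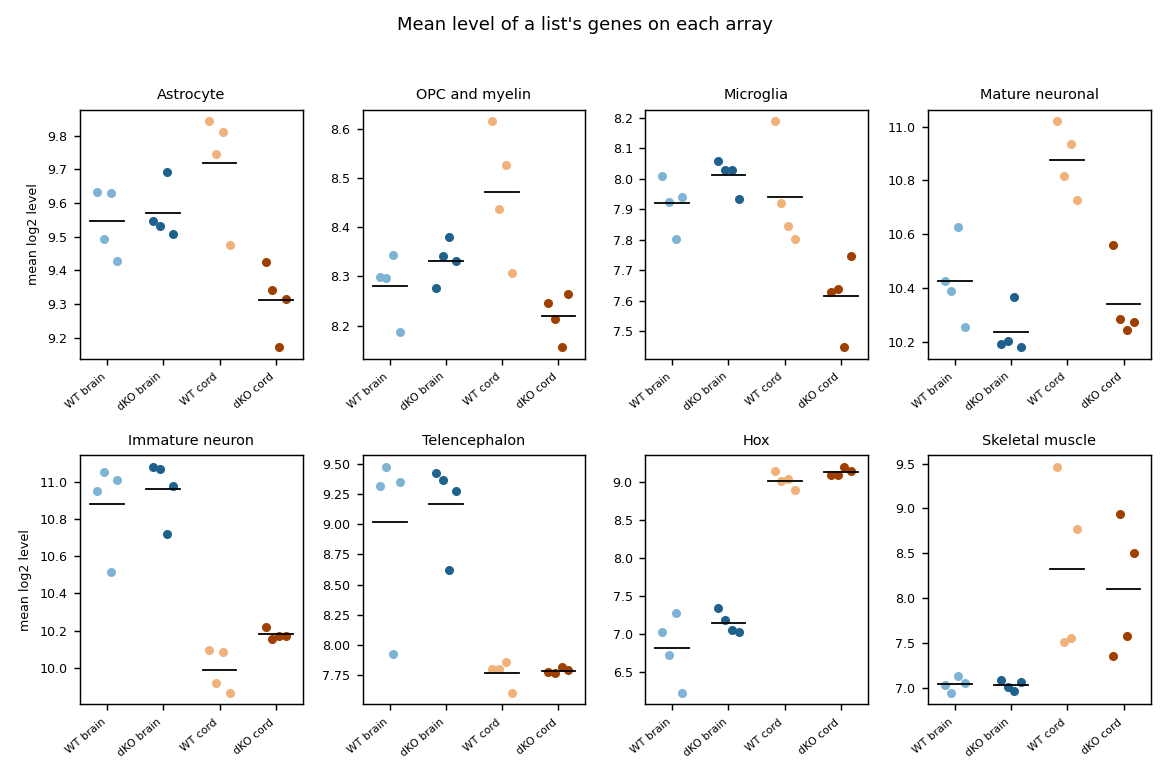
Mean log2 level (vertical axes) of the genes of 8 lists on each of the 16 arrays, with group means as black lines. Astrocyte and mature neuronal genes are lower in dKO cord than in WT cord, telencephalon genes are low on the brain arrays numbered 3, and skeletal muscle genes are high on 4 cord arrays, 2 of each genotype.

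Genes that mark position or tissue around the cord varied with the arrays. Of 28 Hox genes 4 were lower and 1 higher with a median of -0.23, but this came from brain, where the median difference was 0.32 and the mean level of the list lay between 6.22 and 7.34, around the floor. Hoxa6 was between 5.18 and 6.26 in WT brain and 6.36 and 6.99 in dKO brain, against 8.29 to 8.67 in cord, and its interaction of -0.89 rests on values that are mostly below the floor. Without WT brain 4, the array with the lowest Hox level, the median of the Hox list was 0.07. Of 28 skeletal muscle genes 1 was lower, Tnnt1 (-1.01), and the median of -0.24 ran from -0.59 to 0.30 over the alternatives. The telencephalon list had 0 lower and 0 higher of 20, with a median of -0.14 that was 0.27 without WT brain 3. Endothelial genes (2 of 14 lower, median -0.15), and cartilage and bone genes (2 of 16, -0.10) lay nearer to all genes. The fibroblast and meninges list (1 of 22 lower, median 0.08) had mean levels of 8.81 and 8.92 on dKO cord 2 and 4, against at most 8.45 on the other cord arrays. Its median was -0.24 without both the muscle-rich cord arrays, which include dKO cord 2 and 4, and the brain arrays numbered 3. The Schwann and dorsal root ganglion list (0 of 20 lower, median 0.05) changed sign in 11 of 34 alternatives. Of 6 erythroid genes 2 were lower, Alas2 and Fech (-0.32).

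Metabolic and activity genes were partly lower. Of 44 genes of oxidative phosphorylation 6 were lower and 0 higher, with a median of -0.15 and Ndufs7 at -0.50. Of 13 immediate early genes 4 were lower, with a median of -0.21. Egr1 was 7.98, 7.92, 7.48 and 7.69 in WT cord and 7.31, 7.12, 7.08 and 7.30 in dKO cord, and between 7.11 and 7.71 in brain (interaction -0.69, 95% interval -1.07 to -0.31). Jun had an interaction of -0.58. The p53 response list had 1 lower of 15, Cdkn1a (-0.44), and the hypoxia list 1 lower and 2 higher of 19. The 60 Nova splicing target genes, read by gene level, had 8 lower (Camk2g and Mapk9 among them, at -0.45 and -0.46) and 1 higher, Dlg3, with a median of -0.13. Without the muscle-rich cord arrays 3 were lower and 5 higher and the median was 0.0068.

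The astrocyte and mature neuronal lists varied together among the cord arrays. Astrocyte and mature neuronal mean levels were both lowest among WT cord arrays on number 4 and both highest among dKO cord arrays on number 1. The mean muscle level was 8.77 on WT cord 4 and 7.36 on dKO cord 1, the lowest of the cord arrays. The part of tissue composition and of muscle content in these list values was not tested. Without the muscle-rich arrays and the brain arrays numbered 3 the astrocyte median was -0.50 and the mature neuronal median -0.22.

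The exon index was compared in the same way. Of 193126 probe sets of 12340 genes, 1 was called for the interaction by limma (0.000518%). At an unadjusted p under 0.05 there were 10955 (5.67%), 4944 lower (2.56%) and 6011 higher (3.11%). The count was between 0 and 4 over the alternatives and 0 in 24 of 34. The median standard error was 0.187, the median 95% interval reached 0.396 to each side, and 91.5% of the intervals lay within 1 of 0.

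The called probe set was 4959500 of Epb4.1l2, a member of the protein 4.1 family that links spectrin and actin to membrane proteins, and a known Nova target family. Its exon index was 0.69, 0.56, 0.75 and 0.66 in WT brain and -2.14, -1.55, -1.36 and -1.53 in dKO brain. In cord it was 0.34, 0.34, 0.43 and 0.23 in WT and -0.56, -0.27, -0.23 and -0.31 in dKO. The genotypes were separated in both tissues, and the gap was wider in brain. The index fell by 2.31 in brain (adjusted p = 2.42e-07) and by 0.68 in cord (adjusted p = 0.0404), and the interaction was 1.63 (95% interval 1.23 to 2.04, adjusted p = 0.0468). The log2 value of probe set 4959500 itself was 6.38 to 7.13 in dKO brain, around the floor, so the brain fall can be understated. It was 7.71 to 8.09 in dKO cord, and 8.90 to 9.40 in WT of both tissues. The gene level of Epb4.1l2 differed by -0.009 in brain and -0.36 in cord, and the index carries that difference too. The mean log2 value of probe set 4959500 itself went from 9.17 in WT to 6.85 in dKO brain. In cord it went from 8.99 to 7.96. The interaction of the index ran from 1.28 to 1.77 over the alternatives, but the call was made in 9 of the 34. Leaving out 1 array kept it without dKO brain 1 or 3 or dKO cord 1 and ended it without any other, with an adjusted p from 0.00369 to 0.21 over the 16 arrays. With the number as a block in brain the adjusted p of probe set 4959500 was 0.0832. Of the 30 tested probe sets of Epb4.1l2, 5 were called in brain and 1 in cord.

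Other probe sets with a larger response in brain did not pass. In Clstn1, a transmembrane protein that ties cargo to kinesin, the index of probe set 4750032 was 0.12, -0.00, 0.06 and 0.03 in WT brain and -1.11, -0.97, -0.93 and -1.16 in dKO brain. In cord it was -0.05, 0.04, -0.10 and 0.00 in WT and -0.25, -0.16, -0.51 and -0.26 in dKO. It fell by 1.10 in brain, the cord difference was -0.27, and the interaction was 0.83 (adjusted p = 0.157). The WT index was alike in both tissues. The gene level of Clstn1 differed by -0.03 in brain and -0.29 in cord, and the index carries that difference too. The mean log2 value of probe set 4750032 itself went from 11.22 in WT to 10.10 in dKO brain. In cord it went from 11.14 to 10.59. In Cadm1, the synaptic adhesion molecule SynCAM1, probe set 4974376 was -2.64, -2.84, -2.46 and -2.80 in WT brain and -0.98, -1.26, -1.29 and -0.97 in dKO brain. The cord values were -1.86, -1.91, -1.20 and -1.62 in WT and -1.54, -1.43, -1.54 and -1.42 in dKO, with overlap. It rose by 1.56 in brain, the cord difference was 0.16, and the interaction was -1.40 (adjusted p = 0.108). In Cadm1 the WT tissues differed and the dKO tissues came closer together.

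Agrn encodes agrin, which clusters acetylcholine receptors at the neuromuscular junction and is a known Nova target. Probe set 5443828 was -0.68, -0.87, -0.80 and -0.66 in WT brain and -1.82, -2.01, -1.63 and -1.75 in dKO brain. The cord arrays gave -0.98, -1.25, -0.72 and -1.25 in WT and -1.37, -1.04, -1.09 and -1.08 in dKO, with overlap. It fell by 1.05 in brain, the cord difference was -0.09, and the interaction was 0.96 (adjusted p = 0.415). A probe set of Nova2 itself, 5294108, had an interaction of 1.63 (adjusted p = 0.0937), but its dKO values of 6.59 to 7.09 in brain were around the floor and the gene level of Nova2 fell too, so its index is not a measure of splicing. In Scfd1, a vesicle transport gene, probe set 4847276 had log2 values of 13.14, 12.16, 12.30 and 12.70 in WT brain and 6.70, 7.07, 6.87 and 6.20 in dKO brain. In WT cord it was 9.45, 8.56, 6.29 and 7.59 and in dKO cord 6.50, 8.56, 6.13 and 8.01, a wide spread with overlap. Its interaction of 5.15 (adjusted p = 0.157) was the largest named, and no other of the 24 probe sets of Scfd1 was called in either tissue. Scfd1 lies 2 tested genes from Nova1 in the RefSeq gene order of assembly GRCm38.p6. Of the other genes with probe sets named here, Atxn7l1 lies 20, Trim9 54, Odc1 57 and Gphn 98 tested genes from Nova1.

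Probe sets with a larger response in cord did not pass either. In Dynll1, a light chain of dynein, probe set 4305026 was between -4.44 and -3.99 in WT cord and -2.82 and -2.63 in dKO cord, and between -3.91 and -3.27 in brain. Its index rose by 1.46 in cord, the brain difference was 0.27, and the interaction was 1.19 (adjusted p = 0.0937). Its log2 values in WT cord were 5.97 to 6.34, below the floor. In Atp13a2, a lysosomal transport ATPase, probe set 5165970 was -2.91, -2.75, -2.94 and -2.89 in WT cord and -2.0, -1.62, -1.60 and -1.49 in dKO cord, and between -2.84 and -2.42 in brain. The interaction was 1.18 (adjusted p = 0.0937). The gene level of Atp13a2 differed by 0.07 in brain and -0.43 in cord, and the index carries that difference too. The mean log2 value of probe set 5165970 itself went from 6.87 in WT to 6.96 in dKO brain. In cord it went from 7.09 to 7.86. In Mid1, a ubiquitin ligase bound to microtubules, probe set 5573903 was 4.37, 4.35, 4.71 and 4.96 in WT cord and 2.69, 2.70, 2.81 and 2.49 in dKO cord, against 3.92, 3.38, 3.85 and 3.69 in WT brain and 3.25, 2.98, 3.45 and 3.09 in dKO brain. It fell by 1.93 in cord, the brain difference was -0.52, and the interaction was -1.41 (adjusted p = 0.157). Probe sets of Bnip2 (-1.19), Atxn7l1 (-1.17) and the polyamine enzyme gene Odc1 (-1.35) each fell in cord, with brain differences from -0.20 to -0.01. The Bnip2 probe set had log2 values of 5.67 to 7.34 over all arrays, around the floor. The gene level of Bnip2 differed by 0.19 in brain and 0.48 in cord, so part of its index fall lies in the gene level.

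**Figure D5:**
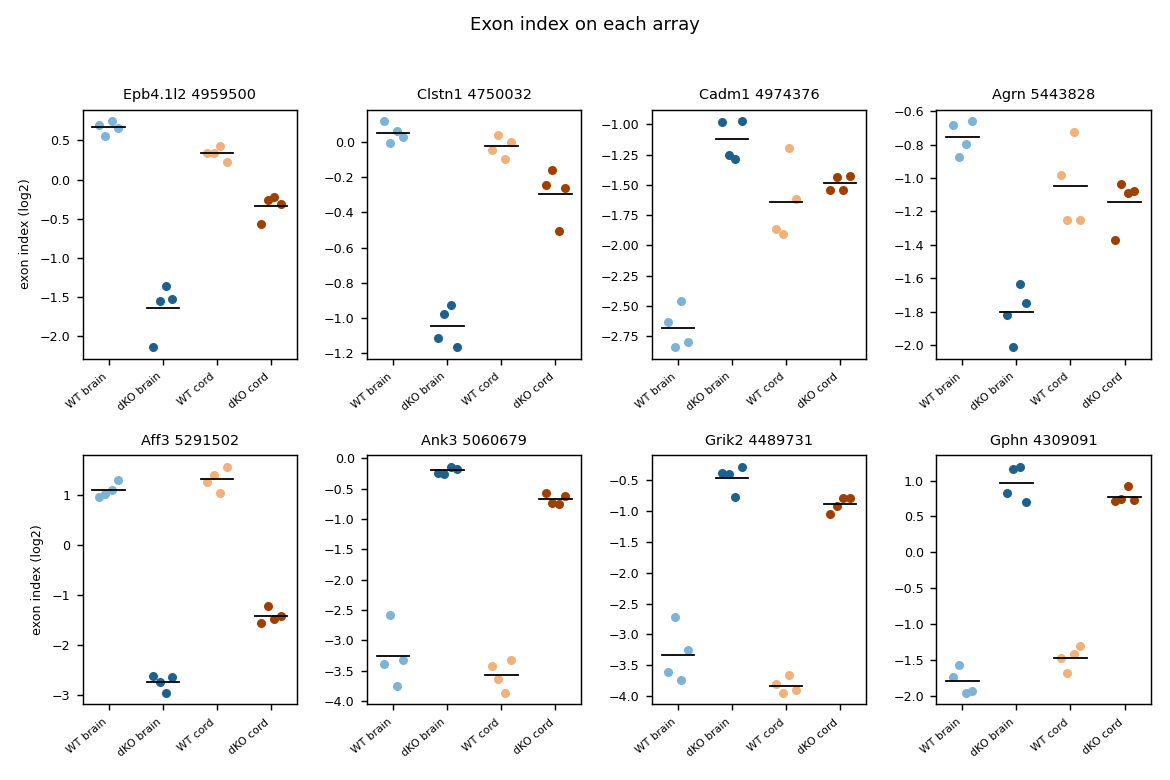
Exon index (log2 value of a probe set minus the level of its gene, vertical axes) on each of the 16 arrays for 8 probe sets, with group means as black lines. In Epb4.1l2, Clstn1, Cadm1 and Agrn the genotypes are further apart in brain than in cord, and in Ank3 and Grik2 they are about as far apart in both tissues.

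Exons called in both tissues changed in the same direction. In brain 290 probe sets were called (0.15%) and in cord 750 (0.388%). Of these 184, in 108 genes, were called in both, 63.4% of the brain calls and 24.5% of the cord calls, and all 184 had the same sign, 93 higher and 91 lower. The change was larger in brain for 125 and larger in cord for 59. The 95% interval of the interaction excluded 0 for 53, of which 44 were larger in brain, and it lay within 1 of 0 for 144 and within 0.5 for 46. The split moved with the arrays kept. Without the muscle-rich cord arrays 58 probe sets were called in both, 22 larger in brain and 36 in cord. Without both sets of arrays these counts were 32, 17 and 15. Fewer calls in a tissue go with a stricter cutoff there, and calls without the muscle-rich arrays were 232 in brain and 111 in cord. The splits therefore do not show which tissue had the larger changes. The number called in cord was 344, 348 and 332 without dKO cord 2, 3 and 4, 111 without the muscle-rich cord arrays, 68 without both sets and 1755 with quantile normalization over all arrays.

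Among the largest shared changes, several had similar sizes in both tissues. In Ank3, which encodes ankyrin G of the axon initial segment, probe set 5060679 was -3.39, -2.59, -3.76 and -3.32 in WT brain and -0.24, -0.25, -0.14 and -0.17 in dKO brain. In spinal cord the values were -3.43, -3.63, -3.87 and -3.33 in WT and -0.58, -0.73, -0.75 and -0.62 in dKO. It rose by 3.07 and 2.90, and the interaction was -0.17 (SE 0.256). In the kainate receptor gene Grik2, probe set 4489731 rose by 2.87 and 2.95 (interaction 0.08, SE 0.25), and in Adam22, a receptor of the secreted protein Lgi1, probe set 4415391 rose by 2.25 and 2.56 (interaction 0.31, SE 0.232). WT values of these 3 probe sets lay between 5.87 and 7.71 on the log2 scale, mostly around or below the floor, so that the rises can be understated in both tissues. In Smarcc2, a subunit of the BAF chromatin complex, probe set 5174790 rose by 2.34 and 2.90 (interaction 0.57, SE 0.438). Its 95% interval of -0.36 to 1.49 does not show a similar size. Its log2 values were 6.93 to 8.47 in WT brain but 5.03 to 6.84 in WT cord, around or below the floor. The rise of Smarcc2 in cord can therefore be understated. In D7Ertd715e, the index of probe set 5139098 fell by 2.77 and fell by 2.64 (interaction 0.13, SE 0.253), and 8 and 9 of its 15 probe sets were called in brain and cord. Its gene level differed by -0.24 in brain and -0.97 in cord, so the index was not read against an unchanged gene level. The mean log2 value of the probe set itself went from 10.21 to 7.20 in brain and from 10.53 to 6.92 in cord. The signs of the small interactions in Ank3, Grik2 and D7Ertd715e turned in 3 or 4 alternatives each.

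For other shared exons the estimated change was larger in brain, and none of those given here passed the interaction test. In Aff3, a nuclear protein of the AF4 family, probe set 5291502 was 0.96, 1.02, 1.11 and 1.31 in WT brain and -2.63, -2.76, -2.97 and -2.65 in dKO brain. On cord arrays it read 1.25, 1.40, 1.05 and 1.57 in WT and -1.57, -1.22, -1.49 and -1.43 in dKO. It fell by 3.85 in brain and fell by 2.74 in cord, and the interaction was 1.11 (SE 0.173, adjusted p = 0.172). The dKO values of Aff3 in brain were 5.87 to 6.82 on the log2 scale and those in cord 7.31 to 7.65. In Gphn, gephyrin, the scaffold of inhibitory synapses, probe set 4309091 was -1.74, -1.56, -1.96 and -1.92 in WT brain and 0.82, 1.16, 1.19 and 0.70 in dKO brain. The cord values were -1.47, -1.67, -1.42 and -1.30 in WT and 0.71, 0.75, 0.92 and 0.72 in dKO. It rose by 2.76 and 2.24 (interaction -0.52, SE 0.177, adjusted p = 0.819). In Ptprf, the receptor phosphatase LAR, probe set 5321146 fell by 3.24 and 2.57 (interaction 0.67, SE 0.199, adjusted p = 0.792), with dKO values of 5.13 to 5.99 that were below the floor in both tissues.

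The known Nova targets were richer in called exons in both tissues and close to the background for the tissue difference. They held 2187 tested probe sets in 60 genes. Of these 79 were called in brain (3.61%, against 0.15% of all probe sets) and 83 in cord (3.80%, against 0.388%). The target list comes from literature on Nova mutant mice and is not independent evidence. In both tissues 61 were called, 77.2% of the brain and 73.5% of the cord calls, all with the same sign. For the interaction 148 had an unadjusted p under 0.05 (6.77%, against 5.67% of all), and 1 was called, in Epb4.1l2. Of the 61 shared ones 39 were larger in brain and 22 in cord, while the median size of their change was 1.0 in brain and 1.1 in cord.

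Single targets went either way by the exon index, and none of the following passed the interaction test. Larger in brain was the change in Aplp2, an amyloid precursor relative, where probe set 5477899 fell by 2.24 in brain and 1.55 in cord (interaction 0.69, adjusted p = 0.641). The same held for the microtubule plus-end protein gene Clasp2, whose probe set 4797129 fell by 1.99 and 1.24, and for the synaptic scaffold gene Cask, whose probe set 4319053 fell by 1.18 and 0.67. It also held for Dlg3, where the index of probe set 5485223 rose by 2.73 and 1.87 while the gene level fell by 1.61 and 1.17. The mean log2 value of that Dlg3 probe set itself went from 7.18 in WT to 8.31 in dKO brain. In cord it went from 7.40 to 8.11. The gene level of Aplp2 differed by -0.13 in brain and -0.45 in cord, and its index carries that difference too. Of the 31 probe sets of Aplp2, 10 had an unadjusted interaction p under 0.05 by limma. The interactions of all 31 were positive, from 0.012 to 0.70. All 31 share the subtracted gene level, so they are not read as separate exon changes. The mean log2 value of probe set 5477899 itself went from 10.99 in WT to 8.62 in dKO brain. In cord it went from 11.41 to 9.41. Larger in cord was the change in Mapk9, the kinase JNK2, where the index of probe set 5462265 rose by 1.04 in brain and 1.76 in cord (interaction 0.72, adjusted p = 0.661). The gene level of Mapk9 differed by -0.14 in brain and -0.60 in cord, and the index carries that difference too. The mean log2 value of the probe set itself went from 10.85 in WT to 11.75 in dKO brain. In cord it went from 10.37 to 11.53. Probe sets of the guidance receptor gene Neo1 (4334084, 0.93 and 1.46) and of the actin regulator gene Mtss1 (4555362, 1.5 and 2.16) also rose more in cord. The microtubule protein gene Mtap4 (5519116) fell by 0.75 in brain and 1.35 in cord. In Trim9, a neuronal ubiquitin ligase, the index of probe set 4474257 fell by 0.49 in brain (adjusted p = 0.045). In cord the index differed by 0.15 (interaction 0.64, adjusted p = 0.558). The gene level of Trim9 differed by -0.22 in brain and -0.37 in cord, and the index carries that difference too. The mean log2 value of the probe set itself went from 9.80 in WT to 9.09 in dKO brain. In cord it went from 9.90 to 9.68.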

How the data were processed

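The authors deposited linear intensity values for 625534 probe sets of 16 Affymetrix mouse exon arrays. Per the submitters' processing notes, PLIER and Affymetrix Power Tools produced them, with build mm8, and versions and settings are not stated there. PLIER summarises a probe set's probes, and no further normalization between arrays was applied here. Median intensities were 72.3 to 82.9 on brain and 99.5 to 116.2 on cord arrays. The platform annotation gives 303629 probe sets 1 gene symbol, 5892 several and 316013 none here, and only the first were used. Symbols are printed as in that annotation. Probe set positions and sequences were not used, so a probe set is not a named exon, and a changed exon index can come from a cassette exon, another transcript start or end, or a sequence variant under the probes.

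Values were taken as log2(intensity + 16). Gene levels were medians over at least 3 probe sets whose mean was above the floor of 6.73 (the 50th percentile), for 14570 genes. The exon index needed at least 5, for 193126 probe sets. Group means were fitted without covariates with limma 3.58.1 (lmFit, eBayes) under R 4.3.3, and data.table (version 1.17.8), and the scripts were tested on simulated data. Adjusted p-values are Benjamini-Hochberg over all features of a comparison. Sex was read from Xist and Y-linked probe sets.

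Of 909 genes in 42 lists, 859 are in the annotation and 800 were tested. The members, lists, tests and alternatives were chosen with earlier results of these data known. Named genes are Nova1 and Nova2, those called, or else the 5 smallest p in each direction, up to 4 members of each list by p, and the 8 largest changes called in both tissues. For exons the same was done with 1 probe set per gene, plus the called probe sets of up to 12 targets. Clone and predicted gene names were skipped.

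Replicate numbers are shared by the groups. WT and dKO brain arrays of the same number had correlated deviations (0.21, 0.41, 0.35 and 0.27), cord arrays did not (-0.12 to -0.003), and in 5 of 8 brain and cord pairs of 1 genotype and number the sexes differed, so these were not taken as 1 embryo. Alternatives covered the gene level, pseudocount, floor, normalization, array weights, blocks, sex, variance prior and leaving out arrays.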

Additional observations from a re-analysis of the deposited data

Results flagged for a closer look

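The interaction of probe set 4959500 of Epb4.1l2 was the only one past its threshold, at 1.63: its exon index fell further in dKO brain than in dKO cord. The index also carries a gene level difference of -0.36 in cord, beside -0.009 in brain.

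In 196 groups of 4 arrays, 12 held 1 array far from the other 3; chance gives about 1 in 20. For gene levels these were Klrc2 on WT brain 2 (7.52, others 7.41 to 7.42), Cx3cl1 on WT brain 3 (9.94, others 9.66 to 9.70) and on dKO cord 1 (9.01, others 8.73 to 8.76), Alas2 on WT brain 4 (8.61, others 9.196 to 9.29), Tuba4a on dKO cord 1 (8.73, others 8.13 to 8.19) and Dtd1 on WT brain 4 (9.81, others 9.52 to 9.55). For the exon index they were Ptprf on dKO cord 1 (-4.29), D7Ertd715e on WT brain 2 (0.085), Smarcc2 on WT cord 2 (-5.21), Gphn on dKO cord 3 (0.92), Agrn on dKO cord 1 (-1.37) and Neo1 on WT brain 2 (0.30). Of the 12, 4 were on dKO cord 1.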

How the results depend on the processing

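Calls of the gene level interaction (0 in the analysis reported) were 1 with means over probe sets, 4 with pseudocount 64, 1 with no floor, 11 with the floor at the 75th percentile, 3 with genes above the floor in each group, 34 and 8 with quantile normalization over all arrays and within each tissue, 41 with array weights and 5 with a trended, robust prior. Without the brain arrays numbered 3, the muscle-rich cord arrays or both there were 10, 1 and 1, and leaving out 1 array gave 0 to 18. Calls of the exon index interaction (1) were 0 with means, pseudocount 1, no floor, quantile normalization over all arrays, a sex term, and without the brain 3 arrays or both sets. They were 3 with pseudocount 64, 4 with array weights and 2 without the muscle-rich arrays, and 0 to 3 without 1 array. The share of lower genes at an unadjusted p under 0.05, 78.3% here, was 67.4% with no floor, 67.8% with array weights and 56.5% without WT cord 1. The cause of these shifts was not tested beyond the fewer arrays or genes that some settings leave.

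With the replicate number as a block over all groups 11 genes and 0 probe sets were called, in brain only 9 and 0, within each tissue 1 and 0, and with brain and cord of 1 number and genotype paired as a block 0 and 0.

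Values near 0 changed sign. Scn9a was 0.035 with the 75th percentile floor, 0.27 and 0.015 with quantile normalization over all and within tissues, 0.10 with a sex term, 0.31 without the muscle-rich arrays, 0.18 without both sets and -0.24 to 0.14 without 1 array. Dzip1 was 0.018 with means and -0.23 to 0.00019 without 1 array, and Cpne3 0.20 with quantile normalization over all arrays. Probe set 4489731 was -0.013 with means, -0.047 with pseudocount 64 and -0.13 to 0.22 without 1 array. Probe set 5060679 was 0.38 with quantile normalization over all arrays and 0.016, 0.022 and 0.21 without brain 3, muscle-rich or both arrays. Probe set 5139098 was -0.28 with means, -0.47 with quantile normalization and -0.019 to 0.27 without 1 array. Dim genes turned too: Nova1 was 0.22 with pseudocount 1, Hoxd8 -0.17 with no floor, and Zhx3 -0.15 and Sox1 0.014 with the 75th percentile floor. Of the named genes and probe sets, no other value changed sign in these 34 analyses.

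Of the gene list medians, these changed sign most often in the 34 analyses: midbrain, hindbrain and cerebellum in 12, AMPA and NMDA receptors in 11 (up to 0.16), Schwann and dorsal root ganglion in 11, cell cycle in 9, collagen and laminin in 7, neural progenitor in 6 and fibroblast and meninges in 5. The Nova target median was 0.0068 without the muscle-rich arrays.

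Signal over background limits dKO Nova1, Hox genes in brain and probe sets near 6.73, whose differences can be understated, and 4 arrays a group leave a median 95% interval of 0.354 to each side of a gene's interaction.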
